A study of Homo sapiens with 4 samples.

Results

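The transcripts described here are long noncoding RNAs whose gene symbol begins with LINC followed by digits, as read on 4 Affymetrix oligonucleotide arrays of human colorectal cancer cell lines. They were chosen on their measured level: a probe set, the group of short oligonucleotides that reads 1 transcript, was included if it was annotated to 1 gene of this name and if its brightest array reached at least 7 on the log2 scale. Of 1084 LINC probe sets of 840 genes, 307 probe sets of 262 genes met the rule and 777 did not, on an array of 54675 probe sets in all. The series compared the array labelled HCT116-CDX1 with HCT116-Vec, and LS174T-siCDX1 with LS174T-siVec, with 1 array for each of the 4 modified lines. HCT116 is a colorectal carcinoma line and LS174T a mucin-producing colon adenocarcinoma line. CDX1 is an intestinal homeobox transcription factor, and the names were read as raised CDX1 beside a vector control in HCT116, and as lowered CDX1 beside a vector control in LS174T. The labels did not give the constructs, the number of clones or the culture conditions.

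LINC symbols are given to long intergenic noncoding RNA genes that have no name from a function or a neighbouring gene. Such RNAs are transcribed by RNA polymerase II, usually spliced, and lack a long open reading frame. Many are made in few tissues and at low levels, and those that have been studied act in the nucleus on chromatin or transcription, or in the cytoplasm as binding partners of proteins or microRNAs. Most of the 262 genes have no established role, so the results are ordered by comparison, with a role given where one is known. In RefSeq, 306 of the 307 probe sets belong to genes of lncRNA type; LINC01296 had no RefSeq match.

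Values were deposited as RMA levels, which are log2 values after background subtraction and equalising of the arrays, so a difference of 1 is 2-fold. In a comparison of 2 arrays, "called", "rose" and "fell" are used of a probe set that reached at least 6 on the brighter array and differed by at least 1. Where the dimmer level lay under 6, the fold is that of the readings, and "at least" gives it against 6 in place of the dimmer level. With 1 array a group, no difference between 2 arrays has a replicate check, no p-value was computed for it, and the number of arrays limits its precision. CDX1 was read at 8.24 on the array labelled HCT116-CDX1 and at 8.21 on HCT116-Vec, so the probe set showed no raised CDX1, and for CDX1 itself the direction in HCT116 rests on the label. In LS174T, CDX1 was 9.06 on siCDX1 and 10.46 on siVec, a fall of 1.40 on the log2 scale. KRT20, the gene of cytokeratin 20, ran the way of the labels in both pairs: it was 9.38 on the array labelled HCT116-CDX1 and 6.36 on HCT116-Vec, and 5.45 on LS174T-siCDX1 and 8.15 on LS174T-siVec.

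A level of 7 was close to the median of all probe sets, which was 7.04 to 7.06 on the 4 arrays, and it is no detection call. Some transcripts of other cell types reached it on these epithelial lines: CD3E of T cells read 7.76 to 8.07, PECAM1 of endothelium 7.49 to 7.68 and COL1A1 of fibroblasts 8.86 to 9.14. Level 7 was reached on any array by 3 of 5 leukocyte markers read, 3 of 5 fibroblast markers and 1 of 4 endothelial markers. The other markers of these lists stayed below it. The rule alone therefore does not show that a LINC RNA was expressed, and the transcripts are called LINC probe sets at level 7 or more. Of 12 markers of colorectal epithelium, 11 stood at 7 or more on every array, and LGALS4 stood below 7 in HCT116. Of 6 leukocyte markers 5 were read, with summed log2 levels of 33.1 on the array labelled HCT116-CDX1, 31.2 on HCT116-Vec, 38.4 on LS174T-siCDX1 and 37.2 on LS174T-siVec. LYZ, at 11.74 on LS174T-siCDX1, and HLA-DRA, higher by 1.63 on the array labelled HCT116-CDX1 than on HCT116-Vec, were the markers behind most of that range, while PTPRC, the general leukocyte marker, stayed between 6.51 and 6.85. The part of other cell types in the LINC differences was not tested.

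Most LINC probe sets sat just above the level that chose them. The rule was met by 28.3% of LINC probe sets, against 63.8% of all probe sets with 1 gene. The brightest level lay between 7 and 8 for 224 of the 307, between 8 and 9 for 62, between 9 and 10 for 13, and at 10 or more for 8. Just inside the threshold stood LINC00922 with a brightest level of 7.002, LINC00482 with 7.004 and LINC01141 with 7.004, and just outside stood LINC02256 at 6.99, LINC00605 at 6.99 and LINC00937 at 6.98. Level 7 was reached on all 4 arrays by 176 probe sets, on 3 by 33, on 2 by 56 and on 1 array by 42. Both LS174T arrays and no other reached it for 30 probe sets, and both HCT116 arrays and no other for 15. A probe set that entered through 1 line only had to read higher there, so the counts below describe the chosen set.

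The levels were even across the arrays for most members. The range from the dimmest to the brightest array had a median of 0.33, against 0.56 over all 1-gene probe sets at level 7 or more. It was under 0.5 for 218 of the 307, between 0.5 and 1 for 45, between 1 and 2 for 30, and 2 or more for 14. The smallest range, 0.04, was that of LINC02175, which read 7.24 on the array labelled HCT116-CDX1, 7.23 on HCT116-Vec, 7.26 on LS174T-siCDX1 and 7.26 on LS174T-siVec. LINC02218, LINC02992, LINC01988 and LINC01588 followed, with ranges of 0.04 to 0.06 and levels between 6.98 and 7.49.

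The 10 probe sets with the highest mean level were, with 1 exception, similar on the 4 arrays. LINC00621 read 10.71 on the array labelled HCT116-CDX1, 10.66 on HCT116-Vec, 10.27 on LS174T-siCDX1 and 10.15 on LS174T-siVec. LINC00520 read 10.32, 10.09, 10.45 and 10.38 in the same order of arrays, and LINC01210 read 10.02, 9.93, 9.80 and 9.85. The brightness of a probe set also depends on its probes, so these levels give no order of abundance between genes. LINC00491, LINC00957, LINC01000, LINC01016, LINC02987 and the brighter probe set of LINC03040 varied by 0.29 to 0.85. The exception was LINC00623, which differed between the lines by 2.13. The probe sets of LINC00621, LINC00520, LINC01000 and LINC00623 and the brighter one of LINC03040 carry the platform's mark for probes shared with other transcripts, as do 37 of the 307.

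**Figure D1:**
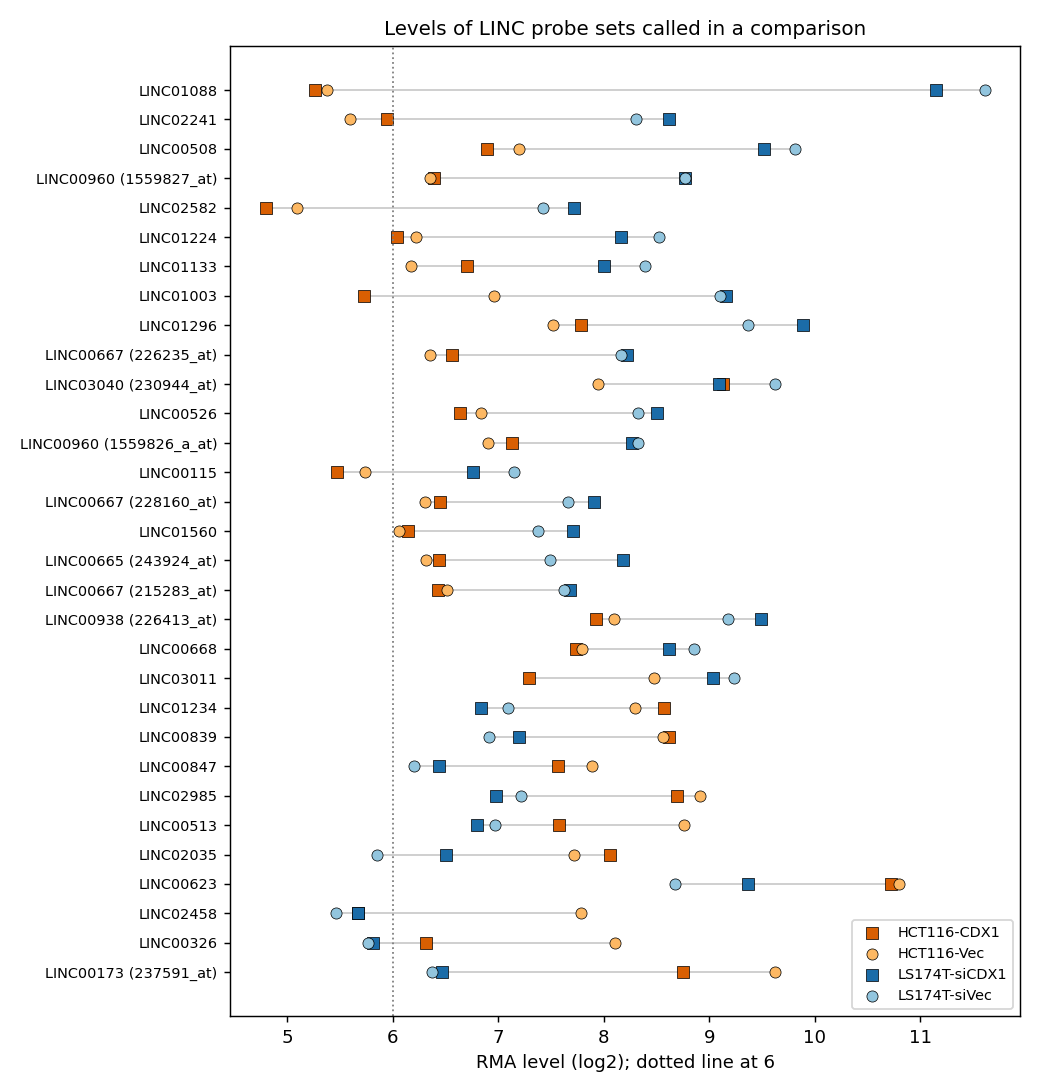
RMA level (log2) of each LINC probe set that was called in at least 1 comparison, on the 4 arrays; squares are HCT116-CDX1 (orange) and LS174T-siCDX1 (blue), circles are HCT116-Vec and LS174T-siVec, and each marker is 1 array. LINC01088 lies above 11 on both LS174T arrays and below 6 on both HCT116 arrays, while LINC02458 and LINC00326 have 1 bright array, HCT116-Vec.

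The first comparison, between the array labelled HCT116-CDX1 and HCT116-Vec, asked which LINC RNAs differ where CDX1 is raised by label. Of 303 LINC probe sets that reached 6 on either array, 1 rose and 5 fell. Over all 25976 such probe sets with 1 gene and a level of 7 or more, 1.07% rose and 1.01% fell. Differences under 0.5 were found for 288 of the 303, or 95%, against 84.9% of all probe sets. The median difference was 0.05 for LINC probe sets and 0.00 for all.

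LINC02458 had the largest fall. Its level was 5.67 on the array labelled HCT116-CDX1 and 7.79 on HCT116-Vec, and it was 5.67 on LS174T-siCDX1 and 5.46 on LS174T-siVec. HCT116-Vec thus stood alone, and the other 3 arrays lay under 6. In HCT116 it fell by 2.12, which is 4.33-fold as read and at least 3.45-fold. LINC00326 had the same shape, with 6.32 on the array labelled HCT116-CDX1 and 8.10 on HCT116-Vec, against 5.81 on LS174T-siCDX1 and 5.76 on LS174T-siVec. It fell by 1.79, or 3.45-fold.

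The other 3 falls were all of genes on chromosome 7. LINC00513, an RNA described in interferon signalling in lupus, read 7.57 on the array labelled HCT116-CDX1 and 8.76 on HCT116-Vec, and 6.80 on LS174T-siCDX1 and 6.97 on LS174T-siVec. It fell by 1.19 in HCT116, or 2.28-fold. A dimmer probe set of LINC00513, with a brightest level of 4.52, differed by -0.23. LINC00513 overlaps LINC-PINT, a p53-induced noncoding RNA, which read 7.44 on the array labelled HCT116-CDX1 and 7.89 on HCT116-Vec and was not called. LINC03011 read 7.29 on the array labelled HCT116-CDX1 and 8.47 on HCT116-Vec, against 9.03 and 9.23 on LS174T-siCDX1 and LS174T-siVec. Its fall in HCT116 was 1.19, or 2.27-fold. LINC01003, read by a probe set marked as shared, was 5.72 on the array labelled HCT116-CDX1 and 6.95 on HCT116-Vec, and 9.16 and 9.10 on LS174T-siCDX1 and LS174T-siVec. It fell by 1.23, or 2.35-fold as read, but by 0.95 with levels under 6 set to 6, which is below the threshold. The 22 LINC probe sets on chromosome 7 had a median difference of 0.13, with 17 above 0. All 1290 probe sets of the chromosome at the level rule had a median of -0.03, and how many of them fell was not counted. The chromosome was looked at after the falls were seen, so nothing is read from their shared chromosome.

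LINC03040 was the only LINC gene that rose. The first of its probe sets read 9.13 on the array labelled HCT116-CDX1 and 7.95 on HCT116-Vec, and 9.10 on LS174T-siCDX1 and 9.63 on LS174T-siVec. HCT116-Vec was the dimmest of the 4 arrays. The difference in HCT116 was 1.18, or 2.27-fold, and in LS174T it was -0.53. The second probe set, marked as shared, read 9.80 on the array labelled HCT116-CDX1 and 8.96 on HCT116-Vec, and 9.74 and 9.81 on LS174T-siCDX1 and LS174T-siVec. Its differences were 0.84 in HCT116 and -0.06 in LS174T, both in the direction of the first but below the threshold. LINC03040 overlaps SCIRT in the RefSeq annotation.

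Below the threshold, 9 further probe sets of HCT116 differed by 0.5 or more, 5 of them lower and 4 higher on the array labelled HCT116-CDX1. The lower ones were those of LINC00173 at -0.87, LINC02525 at -0.66, LINC01315 at -0.57, LINC02482 at -0.54 and LINC00339 at -0.52. The higher ones were those of LINC01000 at 0.58, LINC01133 at 0.53 and LINC02210 at 0.52, and the second probe set of LINC03040. Each was named after its value was seen.

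The comparison of LS174T-siCDX1 with LS174T-siVec asked which LINC RNAs differ where CDX1 is lowered. Of 305 LINC probe sets, 0 rose and 0 fell, whereas 0.573% of all 25814 probe sets rose and 1.38% fell. Differences ran from -0.89 to 0.96, and 291 of the 305, or 95.4%, were under 0.5 in size, against 92.8% of all probe sets. The median difference was 0.05 for LINC probe sets and -0.02 for all. The values named next were chosen after they were seen, since no probe set was called.

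LINC00665 came nearest to the threshold, through the first of its 2 probe sets at level 7 or more. The first read 7.71 on LS174T-siCDX1 and 6.76 on LS174T-siVec, a difference of 0.96, and 6.08 and 6.06 on the array labelled HCT116-CDX1 and on HCT116-Vec. The second read 8.18 on LS174T-siCDX1 and 7.49 on LS174T-siVec, a difference of 0.69. LS174T-siCDX1 was the brightest array for both probe sets. Dimmer probe sets of LINC00665, with brightest levels of 5.44 and 4.15, differed by 0.33 and 0.13. LINC01029 differed by 0.83, LINC01667 by 0.77, LINC00623 by 0.70, LINC03027 by 0.68 and LINC02035 by 0.65, all with the higher level on LS174T-siCDX1. The largest difference in the other direction was that of LINC00920, which read 6.81 on LS174T-siCDX1 and 7.70 on LS174T-siVec, a difference of -0.89. LS174T-siVec stood alone for this RNA, since the array labelled HCT116-CDX1 read 6.93 and HCT116-Vec 6.91. LINC00963, studied in prostate cancer, differed by -0.53.

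**Figure D2:**
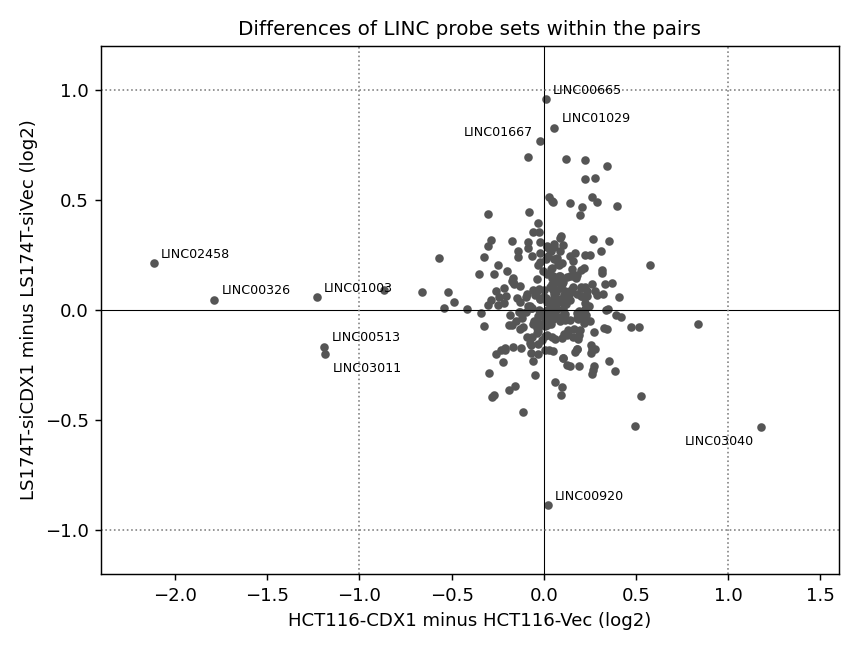
Difference within the HCT116 pair (HCT116-CDX1 minus HCT116-Vec, x axis, log2) and within the LS174T pair (LS174T-siCDX1 minus LS174T-siVec, y axis, log2); each point is 1 of 307 LINC probe sets and dotted lines mark a difference of 1. No point passes 1 on the y axis, and LINC03040 is the only point with at least 0.5 in the x direction together with -0.5 or less in the y direction.

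The pairs share no array, so they were also read together, with the direction taken from the CDX1 label: higher in HCT116-CDX1 than in HCT116-Vec, and higher in LS174T-siVec than in LS174T-siCDX1. At a size of 0.5, 5 LINC probe sets were higher and 10 lower with the label in HCT116, and 3 were higher and 11 lower with it in LS174T. The first probe set of LINC03040 was the only probe set to pass 0.5 in both pairs, and it was higher with the label in each. A linear model of all 4 arrays with terms for CDX1 label and line, fitted with limma to the 41999 probe sets whose brightest array reached 6, asked for a shift with the label that the lines share. By limma, 0 of 307 LINC probe sets and 0% of all probe sets passed an adjusted p of 0.05 for the label. At an unadjusted p under 0.05, 3 of the 307 passed, or 0.977%: the first probe set of LINC03040, LINC00963 and LINC01133. Over all probe sets in the fit it was 3.4%, but these include dimmer ones than the LINC rule takes, and ones not annotated to 1 gene. LINC03040 had a limma label difference of 0.86 ± 0.21 (SE), with an adjusted p of 1. The fit had 1 residual degree of freedom, with the arrays of a line standing in for replicates, so a missed threshold does not show that levels were alike.

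LS174T-siVec was set against HCT116-Vec to describe how the LINC RNAs differ between the lines with their vector controls. This comparison shares HCT116-Vec with the HCT116 pair and LS174T-siVec with the LS174T pair, so no likeness between those differences is read as a result. Of 307 LINC probe sets, 20 were higher and 10 lower in LS174T-siVec, which is 6.51% and 3.26%. Over all 26185 probe sets with 1 gene at the level rule, 7.68% were higher and 7.91% lower. The calls covered 27 genes, 17 higher and 10 lower in LS174T-siVec, and in 7 of the 30 the dimmer array read under 6. The median size of a difference was 0.19 for LINC probe sets and 0.34 for all, and 80.1% of LINC probe sets against 63.6% of all differed by less than 0.5. The brightest array read under 8 for 73% of LINC probe sets and for 30.8% of all 1-gene probe sets at the rule, and the part of signal level in these shares was not tested.

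**Figure D3:**
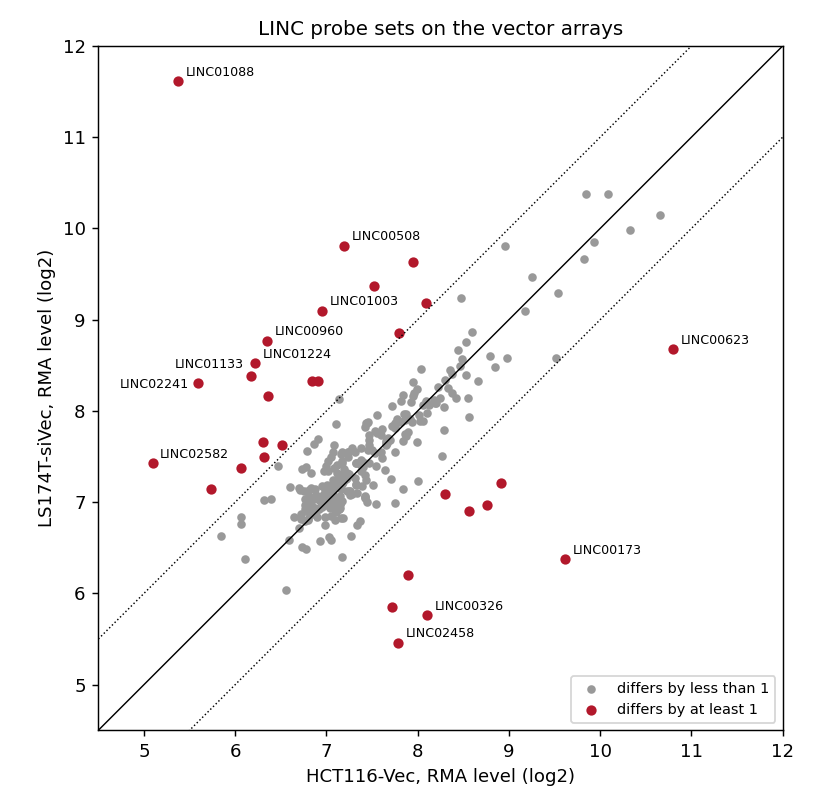
Level of each of 307 LINC probe sets on LS174T-siVec (y axis, RMA log2) against HCT116-Vec (x axis, RMA log2), with the line of equal levels and dotted lines at a difference of 1. The 20 points above the upper dotted line are higher in LS174T-siVec and the 10 below the lower line are lower there; names mark differences of at least 2.

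LINC01088 was the member that differed most. It read 11.15 on LS174T-siCDX1 and 11.61 on LS174T-siVec, against 5.26 on the array labelled HCT116-CDX1 and 5.38 on HCT116-Vec. Both LS174T arrays were thus among the brightest readings of any LINC probe set and both HCT116 arrays among the dimmest. The vector arrays differed by 6.23, which is 75.3-fold as read and at least 48.9-fold, and the other arrays of the lines differed by 5.88. Within LS174T it differed by -0.46. LINC01088, studied in ovarian epithelial cells, was read by a pair of dimmer probe sets as well: these differed between the vector arrays by 1.35 and 0.79, in the same direction, and their brightest levels were 6.48 and 4.45. The neighbouring gene on chromosome 4, PAQR3, which encodes a Golgi membrane protein, read 9.89 and 9.68 on LS174T-siCDX1 and LS174T-siVec and 9.92 and 9.78 on the array labelled HCT116-CDX1 and on HCT116-Vec. On the probe set used for it, PAQR3 was thus even between the lines, while NAA11, which overlaps LINC01088, was not read here. The RefSeq promoter window of LINC01088 is shown because its transcript gave the largest difference; it covers 250 bases before the transcription start and 50 after it, at chr4:78971498-78971797 on the plus strand of GRCh38.p14.
LINC01088: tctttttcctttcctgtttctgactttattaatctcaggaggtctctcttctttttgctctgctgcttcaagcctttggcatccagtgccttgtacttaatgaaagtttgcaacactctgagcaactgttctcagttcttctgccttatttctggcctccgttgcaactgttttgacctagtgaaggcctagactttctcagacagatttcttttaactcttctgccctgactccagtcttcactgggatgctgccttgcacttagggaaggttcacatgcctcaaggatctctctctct

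LINC02241, LINC00508, LINC00960 and LINC02582 followed among the probe sets higher in LS174T-siVec. LINC02241 read 8.62 on LS174T-siCDX1 and 8.31 on LS174T-siVec, against 5.95 on the array labelled HCT116-CDX1 and 5.59 on HCT116-Vec, so the vector arrays differed 6.56-fold as read and at least 4.94-fold. LINC00508 read 9.52 and 9.81 on LS174T-siCDX1 and LS174T-siVec, against 6.90 on the array labelled HCT116-CDX1 and 7.19 on HCT116-Vec, which is 6.13-fold between the vector arrays. In each case the readings of the lines did not overlap, and the gap between the lines was wider than that between the arrays of a line. LINC02582, on chromosome 18, read 7.72 on LS174T-siCDX1 and 7.43 on LS174T-siVec, against 4.795 on the array labelled HCT116-CDX1 and 5.09 on HCT116-Vec, which is 5.04-fold as read and at least 2.69-fold. LINC01133, known from colorectal cancer as a binding partner of the splicing factor SRSF6, read 7.999 on LS174T-siCDX1 and 8.39 on LS174T-siVec, against 6.70 on the array labelled HCT116-CDX1 and 6.17 on HCT116-Vec. It was 4.64-fold higher between the vector arrays, while its dim second probe set, with a brightest level of 6.35, differed by 0.25.

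Some of the higher LINC RNAs lay beside a gene that was higher too. LINC00960 read 8.77 on both LS174T arrays, against 6.39 on the array labelled HCT116-CDX1 and 6.35 on HCT116-Vec, which is 5.36-fold between the vector arrays. Its neighbour on chromosome 3, the zinc finger gene ZNF717, read 8.41 and 8.33 on LS174T-siCDX1 and LS174T-siVec and 6.39 on both HCT116 arrays. LINC01224, on chromosome 19, read 8.16 on LS174T-siCDX1 and 8.52 on LS174T-siVec, against 6.03 on the array labelled HCT116-CDX1 and 6.22 on HCT116-Vec, or 4.93-fold between the vector arrays. Its neighbour ZNF91, a KRAB zinc finger repressor of retrotransposons, read 10.32 and 10.14 on LS174T-siCDX1 and LS174T-siVec, against 8.21 on the array labelled HCT116-CDX1 and 7.86 on HCT116-Vec. The LINC and the zinc finger gene thus differed by nearly the same amount between the vector arrays, 2.30 for LINC01224 and 2.29 for ZNF91.

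LINC00526 and LINC00667 on chromosome 18 are neighbours of each other, transcribed in opposite directions. LINC00526 read 8.51 on LS174T-siCDX1 and 8.33 on LS174T-siVec, against 6.64 on the array labelled HCT116-CDX1 and 6.84 on HCT116-Vec, or 2.81-fold between the vector arrays. LINC00667 had 3 probe sets at level 7 or more, which differed between the vector arrays by 1.81, 1.35 and 1.11, and a dimmer one that differed by 1.16. The 4 probe sets of LINC00667 thus gave 1 direction, and LINC00526 shared it. ZBTB14, a zinc finger gene on the other side of LINC00667, differed by 0.15 and was not called. The RefSeq promoter windows of the pair, on GRCh38.p14 at chr18:5237980-5238279 (minus strand) and chr18:5237850-5238149 (plus strand), share 170 bases. They are shown because the 2 RNAs differed together; capitals mark the shared bases, read on opposite strands, and 72% of each window is G or C.
LINC00526: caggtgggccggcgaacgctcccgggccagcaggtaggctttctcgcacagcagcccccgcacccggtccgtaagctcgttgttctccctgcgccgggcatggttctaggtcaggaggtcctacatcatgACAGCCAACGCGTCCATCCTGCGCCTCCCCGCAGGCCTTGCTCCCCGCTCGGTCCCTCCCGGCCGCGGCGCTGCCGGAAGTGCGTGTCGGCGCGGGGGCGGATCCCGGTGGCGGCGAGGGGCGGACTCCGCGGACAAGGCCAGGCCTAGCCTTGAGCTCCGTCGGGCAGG
LINC00667: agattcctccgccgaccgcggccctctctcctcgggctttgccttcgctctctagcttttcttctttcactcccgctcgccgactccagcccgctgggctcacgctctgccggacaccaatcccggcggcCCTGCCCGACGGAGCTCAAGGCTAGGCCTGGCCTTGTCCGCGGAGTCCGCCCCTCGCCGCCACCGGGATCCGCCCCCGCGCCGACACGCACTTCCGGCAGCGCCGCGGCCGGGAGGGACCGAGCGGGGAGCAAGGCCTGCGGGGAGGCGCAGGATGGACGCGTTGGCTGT

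Chromosome 18 held 6 of the 20 higher probe sets, from the 4 genes LINC00526, LINC00667, LINC02582 and LINC00668. Of the 15 LINC probe sets of this chromosome, 12 were above 0 in LS174T-siVec against HCT116-Vec, with a median of 0.37, while the 403 probe sets of the chromosome at the level rule had a median of -0.01. The chromosome was picked after these values were seen, and several probe sets share a gene. How many of the 403 were called was not counted, so nothing is read from the count of 6. The remaining higher RNAs were LINC01003 at 2.14, LINC01296 at 1.85, the first probe set of LINC03040 at 1.68 and the second of LINC00960 at 1.42. After them came LINC00115 at 1.41, LINC01560 at 1.32 and the second probe set of LINC00665 at 1.18. Last were the brightest probe set of LINC00938 at 1.08 and LINC00668 at 1.05. The other LINC00938 probe set at level 7 or more differed by 0.33, and dimmer ones by 1.51 and 0.17 as read. Among these higher probe sets, LINC01003 and the first of LINC03040 were also called in the HCT116 pair. For LINC01003 that call held only as read, since with levels under 6 set to 6 it was below the threshold.

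LINC00173 led the 10 probe sets that were lower in LS174T-siVec. This RNA, described in granulocytes, read 6.46 on LS174T-siCDX1 and 6.37 on LS174T-siVec, against 8.75 on the array labelled HCT116-CDX1 and 9.62 on HCT116-Vec. It was 9.50-fold lower on the vector array of LS174T, and its other probe set differed by -0.69 in the same direction. LINC00623, read by a probe set marked as shared, was 9.37 on LS174T-siCDX1 and 8.67 on LS174T-siVec, against 10.72 on the array labelled HCT116-CDX1 and 10.80 on HCT116-Vec, or 4.37-fold lower. LINC02035 read 6.50 on LS174T-siCDX1 and 5.85 on LS174T-siVec, against 8.06 on the array labelled HCT116-CDX1 and 7.72 on HCT116-Vec, or 3.65-fold lower as read and at least 3.28-fold. For these 3 RNAs every LS174T reading lay below every HCT116 reading.

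LINC02985, LINC00847, LINC00839 and LINC01234 were lower in LS174T-siVec by smaller amounts. LINC02985 read 6.98 and 7.22 on LS174T-siCDX1 and LS174T-siVec, against 8.70 on the array labelled HCT116-CDX1 and 8.92 on HCT116-Vec. LINC00839 read 7.20 on LS174T-siCDX1 and 6.91 on LS174T-siVec, against 8.62 on the array labelled HCT116-CDX1 and 8.56 on HCT116-Vec. CCNYL2, its neighbour on chromosome 10, read 4.84 and 4.91 on LS174T-siCDX1 and LS174T-siVec, against 7.14 on the array labelled HCT116-CDX1 and 6.61 on HCT116-Vec, and was lower with it. LINC00847, which overlaps the zinc finger gene ZFP62 and the noncoding RNA gene HEIH, differed by -1.69, while ZFP62 differed by 0.62 and HEIH by -0.77. LINC01234, studied in gastric cancer, read 6.84 and 7.09 on LS174T-siCDX1 and LS174T-siVec, against 8.57 on the array labelled HCT116-CDX1 and 8.30 on HCT116-Vec. Dimmer probe sets of LINC00839 and LINC01234, with brightest levels of 6.28 and 5.58, differed between the vector arrays by -0.14 and 0.09. The remaining lower RNAs were LINC00326, LINC02458 and LINC00513, at -2.34, -2.33 and -1.80, which also fell within the HCT116 pair. HCT116-Vec, the array that both comparisons use, was their brightest. The dimmer probe set of LINC00513 differed by -0.12 between the vector arrays.

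The other arrays of the lines, LS174T-siCDX1 and the array labelled HCT116-CDX1, gave a second reading of the lines; this comparison was added after the data were seen. Of the 20 LINC probe sets higher in LS174T-siVec than in HCT116-Vec, 18 were also higher by at least 1 in LS174T-siCDX1 than on the array labelled HCT116-CDX1, or 90%, and over all probe sets with 1 gene it was 60.2%. The exceptions were LINC00668, with a difference of 0.88, and LINC03040, with -0.03. The 20 come from 17 genes, with LINC00667 counted 3 times and LINC00960 2 times, so nothing is read from the higher share. Of the 10 lower probe sets 7 were lower by at least 1 again, or 70%, against 71.3% over all. The exceptions were LINC02458 at 0.00, LINC00326 at -0.51 and LINC00513 at -0.77. The lower share was thus near that over all probe sets, and its 3 exceptions are RNAs that fell in HCT116. The difference between the other arrays is that between the vector arrays, plus the LS174T difference, minus the HCT116 difference. A fall or rise in HCT116 thus changes it by arithmetic, and nothing is read from which RNAs were exceptions.

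In the limma fit of all 4 arrays, 38 of the 307 LINC probe sets, or 12.4%, passed an adjusted p of 0.05 for the cell line, with 26 higher and 12 lower in LS174T. Over all 41999 probe sets of the fit, which include dimmer ones and ones not annotated to 1 gene, 15.6% passed. A probe set that met the level rule through 1 line only had to differ between the lines, and the probe sets named above were picked for their differences on the same arrays, so the count is a description and no p for the line is given for a single LINC RNA. These limma p-values measure only the spread left between 4 arrays, which is how far the label difference varies between the lines. The 2 cell lines also differ in much besides CDX1.

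**Figure D4:**
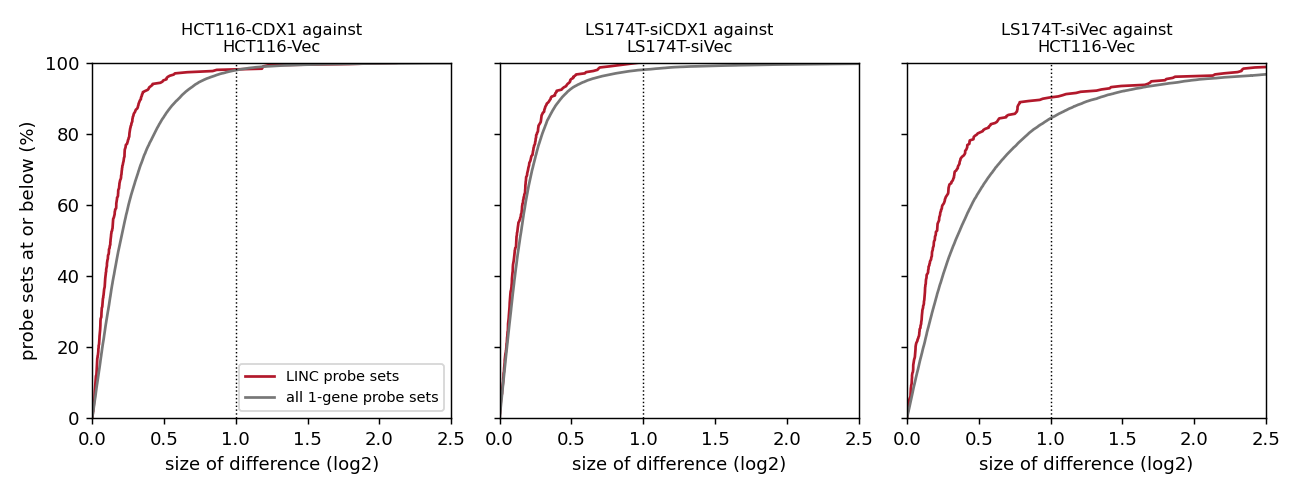
Percent of probe sets (y axis) whose difference is at or below the size on the x axis (log2), in the 3 comparisons of 2 arrays, for LINC probe sets (red) and all 1-gene probe sets at the level rule (grey); the dotted line marks a difference of 1. At 0.5 the LINC curve stands at 95%, 95.4% and 80.1% in the HCT116 pair, the LS174T pair and the vector arrays, and the grey curve at 84.9%, 92.8% and 63.6%.

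Genes with several probe sets show how far readings of 1 gene spread. Of the 262 genes, 32 had several probe sets at level 7 or more, 77 in all and up to 5 a gene, and 230 had 1. All probe sets of a gene had 1 sign in 20 of the 32 genes in the HCT116 pair, in 17 in the LS174T pair and in 19 between the vector arrays. The probe sets of a gene differed by 1 or more among themselves in 0 genes in the HCT116 pair, 0 in the LS174T pair and 3 between the vector arrays. Among these probe sets the spread was widest for LINC00173, from -3.25 to -0.69. It ran from 1.42 to 2.42 for LINC00960 and from -0.41 to 0.63 for LINC01278, the only 1 of the 3 whose probe sets differed in sign. LINC00205 and LINC01128, with 5 probe sets each, stayed within -0.63 to 0.38 in that comparison. Probe sets below level 7 were left out of these counts, and some lay further from the brighter ones. Between the vector arrays the probe sets of LINC01088 differed by 6.23, 1.35 and 0.79, and those of LINC01133 by 2.21 and 0.25. The dimmer probe set of LINC00667, at 1.16, lay within the range of the brighter ones.

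**Figure D5:**
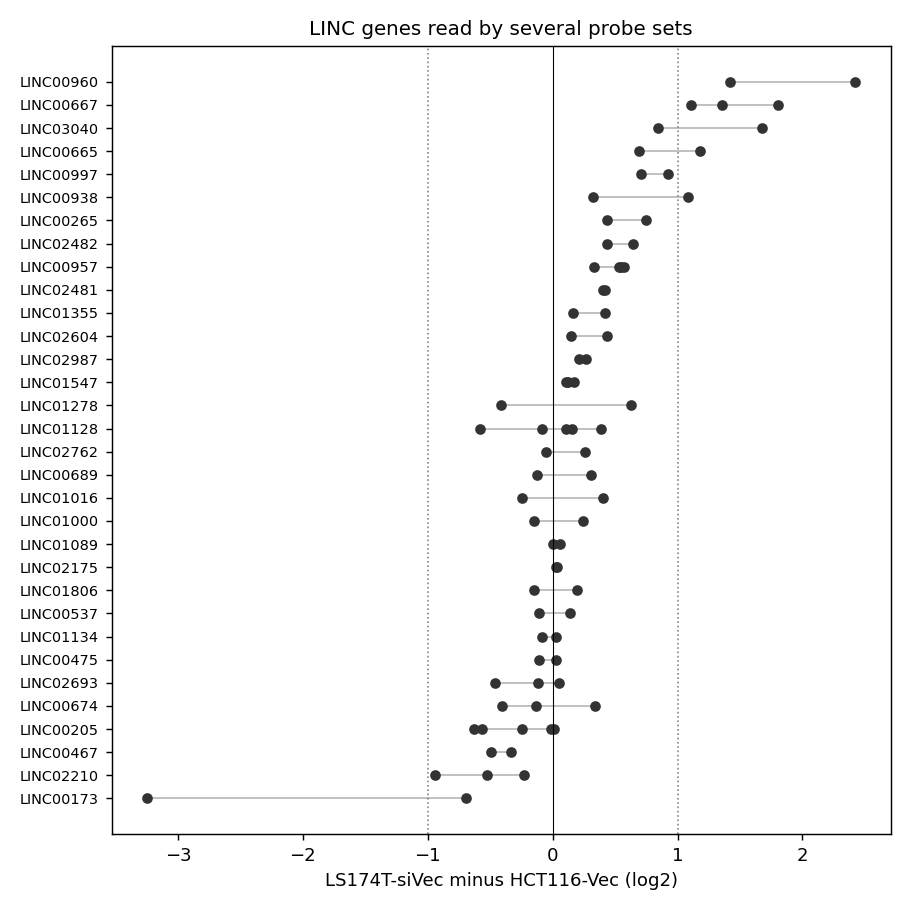
Difference between LS174T-siVec and HCT116-Vec (x axis, log2) for the 32 LINC genes with several probe sets at level 7 or more; each point is 1 probe set, a grey line joins the probe sets of a gene, and dotted lines mark a difference of 1. LINC00960 and LINC00667 have all points above 1, and LINC00173 has 1 point at -3.25 and the other at -0.69.

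Neighbouring genes were read for the called LINC genes from the order of genes in RefSeq on GRCh38.p14. Of the 27 genes called between the vector arrays, LINC00115, LINC00665, LINC00668, LINC00938 and LINC01560 lay outside that limit and were not searched. Among the others, 14 had a neighbour that reached 6 on an array, 20 neighbours in all. Of these neighbours, 5 were called in the direction of the LINC gene. They were ZNF717, ZNF91, CCNYL2, and LINC00526 and LINC00667, which are 1 pair counted from both sides. CCNYL2 read 6.61 on HCT116-Vec and 4.91 on LS174T-siVec, so with levels under 6 set to 6 its difference was below the threshold. Over all probe sets with 1 gene 7.68% were higher and 7.91% lower. Among the other neighbours, CDH18 beside LINC02241 differed by 0.02, SLAMF9 overlapping LINC01133 by 0.29, and SLC49A4 and SEMA5B around LINC02035 by 0.14 and 0.26. In the HCT116 pair 1 of 6 called genes had such a neighbour, LINC-PINT at -0.45.

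Promoter windows were searched for the CDX consensus TTTATNG and its reverse complement CNATAAA, on both strands, since CDX proteins bind AT-rich sites of this kind. RefSeq windows were matched for 192 of the 262 genes, and 24 of them, or 12.5%, held the motif, against 9.73% of 35116 windows of the same length. Of 28 genes called in a comparison 23 had a window, and 2 held it, or 8.7%. LINC02458, the RNA with the largest fall in HCT116, has CTATAAA 172 bases before its start, and these letters include TATAAA, which 11.5% of all windows hold. LINC01224, higher in LS174T, has TTTATCG 48 bases before its start. LINC01088, LINC00526 and LINC00667, whose windows are printed above, hold 0 matches. A match is only a description of the letters, and nothing follows from it about CDX1. The windows of LINC02458, at chr12:89019643-89019942, and of LINC01224, at chr19:23416025-23416324, both on the minus strand of GRCh38.p14, are shown with the motif in capitals.
LINC02458: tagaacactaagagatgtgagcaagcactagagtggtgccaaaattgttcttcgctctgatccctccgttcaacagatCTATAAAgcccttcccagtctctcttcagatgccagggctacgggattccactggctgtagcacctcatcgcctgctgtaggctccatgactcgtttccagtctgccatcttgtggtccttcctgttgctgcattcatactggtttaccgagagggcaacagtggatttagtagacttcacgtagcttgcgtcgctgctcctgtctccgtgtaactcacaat
LINC01224: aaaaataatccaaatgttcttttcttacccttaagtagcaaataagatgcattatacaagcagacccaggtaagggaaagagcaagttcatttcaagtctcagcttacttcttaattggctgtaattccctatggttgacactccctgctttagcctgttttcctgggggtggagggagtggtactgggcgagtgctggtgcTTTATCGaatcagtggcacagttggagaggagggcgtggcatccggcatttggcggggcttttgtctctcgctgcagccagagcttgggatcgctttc

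Long noncoding RNAs with other names were read beside the LINC genes from a list of 50, of which 36 were read and 26 reached level 7. Each was read by its probe set with the highest mean, and other probe sets of these genes were not used. In the HCT116 pair 0 of 26 rose and 0 fell, with a median difference of 0.08. In the LS174T pair 0 of 25 rose and 1 fell: UCA1, an RNA first found in urothelial carcinoma, read 8.43 on LS174T-siCDX1 and 9.85 on LS174T-siVec and fell by 1.42. Between the vector arrays 2 of 26 were higher and 2 lower in LS174T-siVec. CRNDE, named for its raised level in colorectal neoplasia, read 4.57 and 3.96 on LS174T-siCDX1 and LS174T-siVec, against 8.30 on the array labelled HCT116-CDX1 and 8.18 on HCT116-Vec. TP53TG1, a p53 target, read 9.30 and 9.25 on LS174T-siCDX1 and LS174T-siVec, against 6.70 on the array labelled HCT116-CDX1 and 6.42 on HCT116-Vec. DANCR was higher by 1.04 and DLEU2, the host of a microRNA cluster, differed by -1.70. Against the shares of all probe sets called in each comparison, 1.07% and 1.01%, 0.573% and 1.38%, and 7.68% and 7.91% higher and lower, nothing particular is read from these counts.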

How the data were processed

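Total RNA was extracted with RNeasy and 2 µg was labelled with biotin, per the labels' protocols. The authors processed the arrays with RMA, per the submitters' processing notes, and deposited log2 expression of 54675 probe sets; which version was used, and on which arrays together, is not given in the sources used here. No further scaling was applied. Gene names are those of the platform annotation (41097 probe sets with 1 gene, 1801 with several, 11777 with none listed), of which 41043 matched RefSeq genes of GRCh38.p14 by gene ID, with 0 symbols changed; promoter windows are RefSeq's.

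Groups came from the sample titles, with 1 array each, and nothing in the labels describes replicate cultures. The 3 comparisons of 2 arrays are differences of log2 levels. The fit used limma 3.58.1 in R 4.3.3 (lmFit and eBayes, Benjamini-Hochberg over 41999 probe sets). Its 1 residual degree of freedom is how far the label difference varies between the lines, moderated over probe sets. That spread may be technical in part, and it also takes in any difference that only 1 line shows. The p-values measure no spread between replicate cultures. The remaining steps ran in Python 3.11.15 with matplotlib 3.10.9, statsmodels 0.14.6, scipy 1.17.1, pandas 2.3.3 and numpy 2.4.6. The 2-fold rule and the fit were tested on simulated data.

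Members, lists and tests were chosen with earlier results of these data known. Named were LINC02458 and LINC01088, up to 12 called probe sets per direction in each comparison, the 10 highest means, the 5 smallest ranges, genes with several probe sets, the 3 neighbours on each side of level 7, nearest RefSeq genes of named members, and called members of the list of other noncoding RNAs; further names were chosen after their values were seen. Alternatives were other floors and fold thresholds, other level rules, quantile normalization, equal medians, loess removal (span 0.3), levels under 6 set to 6, means over the probe sets of a gene, and omission of shared probe sets, and for limma other filters, moderation and terms.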

Additional observations from a re-analysis of the deposited data

How the results depend on the processing

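With a threshold of 3-fold the HCT116 pair had 2 calls in place of 6. With 1.5-fold the LS174T pair had 10 calls (9 higher and 1 lower) in place of 0, and the vector arrays had 53 (35 higher and 18 lower) in place of 30. Under the other alternatives tried the HCT116 pair gave 5 to 9 calls, the LS174T pair 0, and the vector arrays 20 to 35; the limma line term gave 38 to 46 LINC probe sets and the limma label term 0 under each setting. No difference changed sign under equal medians, quantile normalization, loess removal or levels under 6 set to 6, and 36 results stayed called under equal medians and 35 of 36 under each of the others. The exceptions were LINC00668 between the vector arrays, at 0.997 under quantile normalization and 0.9986 under loess removal, and LINC01003 in HCT116, at -0.95 with levels under 6 set to 6, whose dimmer array lay under 6. Levels near 7 lie close to those of some genes of other cell types, which limits what a difference of a dim probe set can show.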
